A study of Mus musculus with 5 samples.

Results

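The proteasome is a barrel of proteases that degrades proteins tagged with ubiquitin. This section describes the genes of its subunits in the Gfi1 and Lsd1 peak lists of MG tumors. The genes were taken by name from the mouse annotation GENCODE M21, as all protein-coding genes whose symbol begins with Psma, Psmb, Psmc, Psmd, Psme, Psmf or Psmg, which gave 50 of 21938 protein-coding genes. No measured value entered this rule, but it was set with earlier results of these data known. MG tumors are mouse medulloblastomas made from Prominin1+, lineage-negative neural stem cells, sorted from the cerebellum of C57BL/6 pups aged 5 to 7 days. The cells carried retroviral Gfi1 and a stabilized mutant Myc and grew in the cerebellum of NSG mice, from which they were taken when the hosts were adult. These mice lack lymphocytes but keep their own myeloid cells. Chromatin of 2 tumors, numbered 39 (replicate 1) and 41 (replicate 2), was immunoprecipitated with a rabbit antibody to Gfi1 or to Lsd1, which gave 4 libraries, and each tumor gave 1 library of each factor. Both tumors carry the same transgenes, the Gfi1 in them comes from the virus as well as from any active endogenous gene, and tumors without Gfi1 were not analysed here. The input control is a pool of MGB (Myc/Gfi1b) tumors and was not analysed here.

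Gfi1 is a zinc finger repressor that recruits Lsd1, a demethylase that removes methyl groups from lysine 4 of histone H3. The proteasome has a core of stacked rings, in which alpha subunits gate the channel and beta subunits cut, and a regulatory cap made of ATPases that unfold the substrate and of other subunits that bind and strip ubiquitin. In cells exposed to interferon gamma the catalytic subunits Psmb5, Psmb6 and Psmb7 are replaced by Psmb8, Psmb9 and Psmb10, and the resulting immunoproteasome makes peptides suited to antigen presentation. In most cells the constitutive subunits are housekeeping genes with CpG-rich promoters.

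The deposited lists give the place of each peak and a score with no stated definition. A gene was counted as having a peak when a peak came within 1 kb of any of its transcription start sites (TSSs). Where several did, the peak with the highest score was used. Its score was turned into a percentile, the share of the peaks of that list that rank below it, so that 50 is the middle peak of the list. Tied peaks were given their mean rank. The lists hold 36836 and 25078 Gfi1 peaks and 30367 and 33213 Lsd1 peaks in tumors 39 and 41. Many of the highest scores are tied at 3100, with 910 peaks at or above it in the Gfi1 list of tumor 39 and 13 in that of tumor 41, and 5 of the members' 190 peaks reach it. Read counts per peak are not in the lists, so no precision can be given for a single peak. No test between groups was run, since an exact test over 2 tumors could not reach significance (the smallest exact two-sided p for 2 pairs is 0.5), and the spread over the tumors is given in its place. In bulk chromatin a peak that is lower in every cell and a peak that fewer cells carry cannot be told apart.

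The promoters of 5 catalytic genes are printed, since the contrast between the constitutive and the immunoproteasome subunits turns on them, and that of Psmb3 is added as the member with the highest mean percentile. The stretches run from 250 bases before to 25 bases after the RefSeq start site on the GRCm38.p6 build, the build of the mm10 peak lists. They lie at chr14:54617971-54618245 (Psmb5, minus strand), chr11:70525107-70525381 (Psmb6, plus), chr17:34197945-34198219 (Psmb8, plus), chr17:34187306-34187580 (Psmb9, minus), chr8:105938368-105938642 (Psmb10, minus) and chr11:97703184-97703458 (Psmb3, plus). Capitals mark CpG dinucleotides, the sites of DNA methylation.
Psmb5: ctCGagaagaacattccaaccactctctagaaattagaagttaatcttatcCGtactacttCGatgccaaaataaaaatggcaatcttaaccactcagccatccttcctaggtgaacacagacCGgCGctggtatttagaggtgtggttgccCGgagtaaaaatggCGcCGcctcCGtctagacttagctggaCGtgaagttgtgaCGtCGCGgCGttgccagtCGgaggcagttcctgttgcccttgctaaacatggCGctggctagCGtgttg
Psmb6: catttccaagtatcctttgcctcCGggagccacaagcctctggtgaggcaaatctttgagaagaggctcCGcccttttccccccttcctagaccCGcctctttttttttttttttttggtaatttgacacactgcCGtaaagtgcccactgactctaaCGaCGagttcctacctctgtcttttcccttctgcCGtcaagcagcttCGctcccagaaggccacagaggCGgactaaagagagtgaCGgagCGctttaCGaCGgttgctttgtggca
Psmb8: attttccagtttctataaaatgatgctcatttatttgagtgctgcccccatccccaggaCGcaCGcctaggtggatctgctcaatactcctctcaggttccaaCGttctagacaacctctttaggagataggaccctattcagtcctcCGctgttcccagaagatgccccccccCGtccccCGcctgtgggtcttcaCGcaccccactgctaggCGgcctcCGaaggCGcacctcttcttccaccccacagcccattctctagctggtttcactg
Psmb9: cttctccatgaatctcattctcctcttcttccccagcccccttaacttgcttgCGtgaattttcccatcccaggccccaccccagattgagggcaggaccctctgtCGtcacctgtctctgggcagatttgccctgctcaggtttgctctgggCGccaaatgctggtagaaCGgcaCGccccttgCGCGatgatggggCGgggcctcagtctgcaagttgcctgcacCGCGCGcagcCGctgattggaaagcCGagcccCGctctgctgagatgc
Psmb10: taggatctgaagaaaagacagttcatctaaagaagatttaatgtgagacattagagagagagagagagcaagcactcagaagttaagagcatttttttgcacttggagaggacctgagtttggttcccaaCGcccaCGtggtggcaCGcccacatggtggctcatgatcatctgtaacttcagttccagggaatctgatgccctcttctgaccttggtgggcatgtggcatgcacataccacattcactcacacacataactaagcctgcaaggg
Psmb3: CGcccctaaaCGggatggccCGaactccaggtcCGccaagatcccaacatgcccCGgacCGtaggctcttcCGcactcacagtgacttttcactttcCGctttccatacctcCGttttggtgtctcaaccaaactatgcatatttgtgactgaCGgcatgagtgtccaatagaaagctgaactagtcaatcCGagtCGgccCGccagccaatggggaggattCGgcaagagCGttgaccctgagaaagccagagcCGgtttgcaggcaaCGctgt
The printed stretches hold 17 CpGs for Psmb5, 13 for Psmb6, 10 for Psmb8, 14 for Psmb9, 3 for Psmb10 and 17 for Psmb3. In the whole RefSeq promoter window of 300 bases the median protein-coding gene holds 15. Of the protein-coding windows 17% hold fewer CpGs than the 3 of Psmb10, although another of its TSSs has 49 CpGs within 500 bp on either side. Psmb7 is named only.

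Nearly every proteasome gene had a peak of both factors at its promoter. Within 1 kb of a TSS a Gfi1 peak was found for 48 of the 50 genes in tumor 39 and for 47 in tumor 41, against a background of 65% and 54.3% of all protein-coding genes. An Lsd1 peak was found for 48 and 47, against 58.5% and 61.7%. In all 4 libraries 47 of the 50 genes had a peak, which is 94%, against 53.1% of all protein-coding genes. The members' highest peak covered a TSS in all 190 cases. Every subunit of the core and of the cap that is not tissue-specific was in this set.

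The 3 genes without a full set of peaks are not housekeeping subunits. Psma8, the alpha subunit of spermatogenic cells, on chromosome 18, had its nearest peak 22111 to 22434 bp from a TSS. Psme2b, a copy of the activator gene Psme2, on chromosome 11 from 48945354 to 48946190, had its nearest peak 74113 to 87598 bp away. Neither gene came near a peak in any of the 4 lists.

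Psmb11, the beta subunit of thymic epithelium, lies on chromosome 14 from 54621433 to 54629556, 3410 bp from Psmb5 on the side where that gene starts. It had a peak in tumor 39 with both factors, at percentile 54.97 for Gfi1 and 53.0 for Lsd1, and none in tumor 41. The nearest peaks in tumor 41, at 2810 bp (Gfi1) and 2677 bp (Lsd1), were those of Psmb5. A gene with peaks of both factors in tumor 39 and none in tumor 41 was rare, at 100 protein-coding genes or 0.456%, and the reverse was found for 21 genes or 0.0957%.

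**Figure D1:**
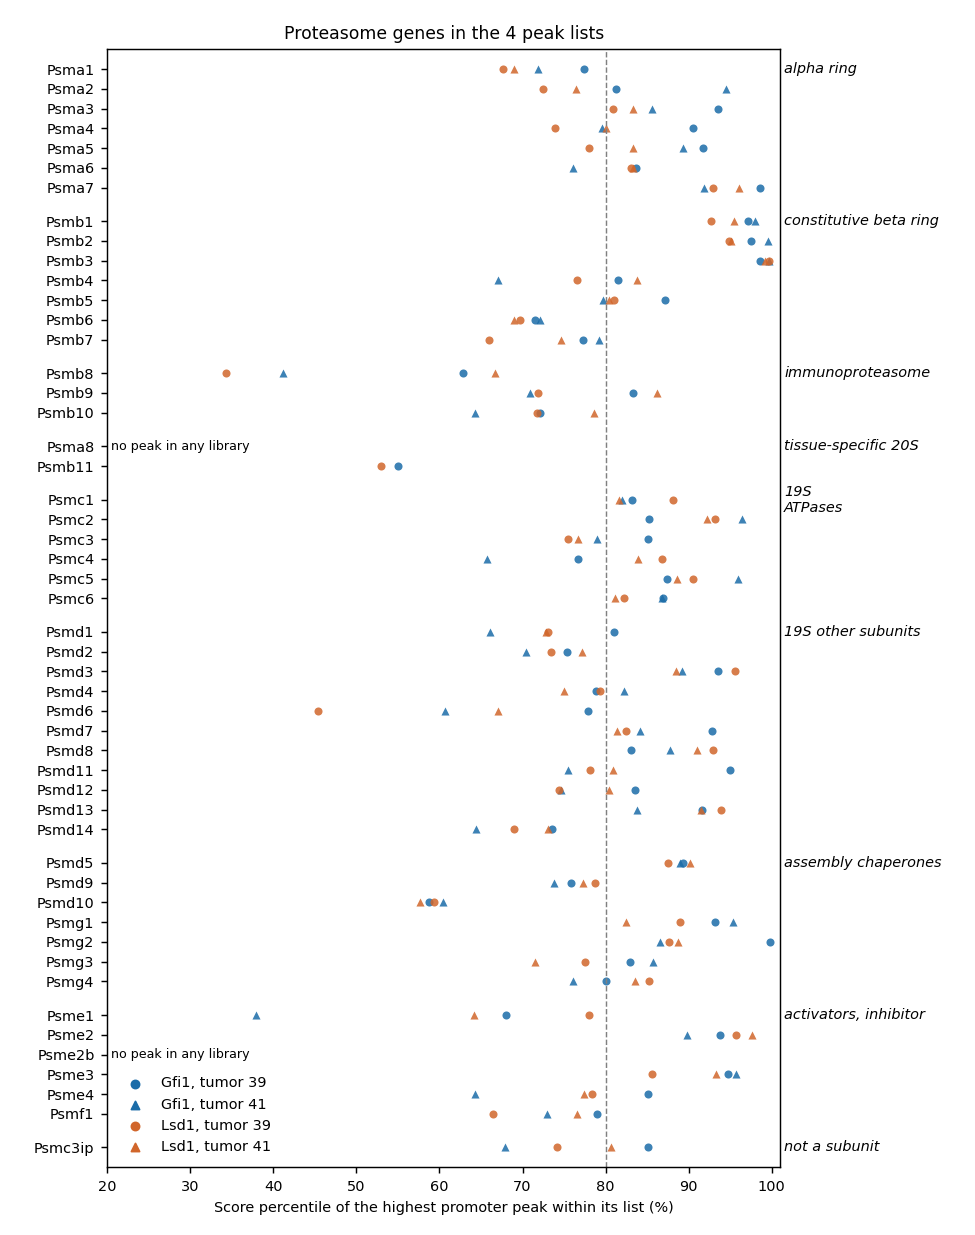
Score percentile within its own list (horizontal axis, in percent) of the highest peak within 1 kb of a TSS for each of the 50 proteasome genes, grouped by role, in the 2 Gfi1 (blue) and 2 Lsd1 (orange) libraries of tumors 39 (circles) and 41 (triangles), with a dashed line at 80. Psma8 and Psme2b have no peak, Psmb11 has peaks in tumor 39 alone, and Psmb8 has the lowest mean of the genes with 4 peaks.

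The rank of the peaks was close to that of other genes with a peak. Over the members with a peak the median percentile in tumors 39 and 41 was 83.59 and 79.52 with Gfi1, and with Lsd1 78.58 and 81.15. The same medians over all protein-coding genes with a peak were 82.47 and 77.44, and 79.03 and 80.98. As means over the tumors these are 81.56 ± 2.88 for Gfi1 and 79.87 ± 1.82 for Lsd1 (SD, n = 2), against 79.95 ± 3.55 and 80 ± 1.38. Each difference is smaller than these SDs, which also hold the shift between lists that members and background share. Within the lists, the members' Gfi1 median was slightly above that of all genes in both tumors. Their Lsd1 median was below it in tumor 39 and above it in tumor 41. When the 11653 protein-coding genes with 4 peaks were ordered by mean percentile and cut into 4 equal groups, 8 members fell in the highest group, 13 and 20 in the middle groups and 6 in the lowest.

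In the upper 20% of the score in all 4 lists stood 18 of the 50 genes, or 36%, against 19.9% of all protein-coding genes. Among genes with a peak in all 4 lists the shares were 38.3% and 37.5%, so the gap between 36% and 19.9% goes with having a peak at all. In both Gfi1 lists 21 genes were in the upper 20% (background 23.3%), and in both Lsd1 lists 22 (background 26.1%). The count of 18 depends on the ranking. When ranked only among peaks at a TSS, 5 genes were in the upper 20% in all 4 lists, which is 10% against 9.51% of all protein-coding genes.

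Psmb3, a beta subunit without catalytic activity on chromosome 11 from 97703399 to 97713500, had the highest mean percentile, with peaks at 98.62 and 99.71 with Gfi1, and with Lsd1 99.73 and 99.16. All 4 percentiles were 98.62 or higher, and the lowest of them is the mean rank of the peaks tied at 3100. In the Gfi1 list of tumor 39, among the members, only the chaperone gene Psmg2 stood higher, at 99.77, and Psma7 was level with Psmb3. The Psmb3 peaks were also the widest of the members, with a mean of 7570.2 bp. They reached 5844 to 6227 bp upstream of the RefSeq start, over the TSS of Pcgf2, a Polycomb subunit. Psmb2, also a beta subunit, stood at 97.53, 99.52, 94.89 and 95.05 in the order Gfi1 39, Gfi1 41, Lsd1 39 and Lsd1 41, which is kept below. No other coding TSS lay in its peaks, and their mean width was 1747.0 bp.

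Psmb1, a beta subunit, stood at 97.18, 97.98, 92.74 and 95.52 and shared its peaks with Tbp, the TATA-binding protein, whose TSS lies 137 bp away in the other direction. Psma7, an alpha subunit, stood at 98.62, 91.82, 92.98 and 96.08, with peaks of 5653.2 bp on average that also covered the TSS of Ss18l1. Psme2, which encodes a part of the activator PA28 that opens the gate of the core, stood at 93.73, 89.85, 95.73 and 97.65. These 5 genes had the highest means of the 47, from 94.24 (Psme2) to 99.31 (Psmb3).

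The alpha ring, which forms the gate, had 7 of 7 genes with 4 peaks, and 2 of them, Psma3 and Psma7, in the upper 20% of every list. The median over the 7 genes was 90.52 and 85.58 in the Gfi1 lists and 77.98 and 83.26 in the Lsd1 lists. The lowest was Psma1, at 77.42, 71.85, 67.69 and 68.93. Among the constitutive beta genes 7 of 7 had 4 peaks, and 3 (Psmb1, Psmb2 and Psmb3) were in the upper 20% of every list. Their spread was wide, with mean percentiles from 70.54 (Psmb6) to 99.31 (Psmb3).

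In the cap all 6 ATPase genes had 4 peaks, and Psmc1, Psmc2, Psmc5 and Psmc6 were in the upper 20% in every list. Psmc2, highest of the 6, stood at 85.27, 96.48, 93.13 and 92.22 and shares its promoter with Dnajc2, whose TSS is 32 bp away. The other cap subunits had 11 of 11 genes with 4 peaks, of which Psmd3, Psmd7, Psmd8 and Psmd13 were in the upper 20% throughout. Among the lowest of all members were 2 genes of this group. Psmd14, the enzyme that strips ubiquitin chains from the substrate, stood at 73.54, 64.42, 68.96 and 73.11. Psmd6, a lid subunit, stood at 77.84, 60.61, 45.39 and 67.01 and had the second widest spread between the Lsd1 libraries after Psmb8, with an SD of 15.29.

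Of the 7 assembly chaperones, which help build the core and the cap and leave afterwards, 7 had 4 peaks, and Psmd5, Psmg1 and Psmg2 were in the upper 20% in every list. Psmd10, also known as gankyrin and the only member on the X chromosome, was low and even, at 58.7, 60.43, 59.29 and 57.66. It has 28 CpGs within 500 bp of its TSS, the fewest of the members with 4 peaks, and its peaks were the narrowest, with a mean of 1335.5 bp. Of the activators and the inhibitor Psmf1, 5 of 6 genes had 4 peaks. Psmc3ip fits the naming rule but is a meiotic recombination factor and no proteasome subunit, and it stood at 85.09, 67.87, 74.12 and 80.66.

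The partners of PA28 differed. Psme1 and Psme2, its subunits, which are both induced by interferon gamma, lie 5911 bp apart on chromosome 14. Psme1 stood at 67.95, 37.93, 78.04 and 64.17, below Psme2 in every list. Psme1 has 35 and Psme2 39 CpGs within 500 bp of a TSS, and the peaks of Psme2 also held the TSS of Rnf31 in every list.

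The contrast between the immunoproteasome and the constitutive catalytic genes was different for each pair. Psmb8 is on chromosome 17 from 34197721 to 34201454, in the major histocompatibility complex, and its peaks stood at 62.86, 41.13, 34.24 and 66.69. Psmb5, the subunit it replaces, lies on chromosome 14 from 54614119 to 54618022 and stood at 87.18, 79.74, 80.99 and 80.37. Psmb8 was lower in 4 of 4 libraries, and the groups of values do not overlap. The difference was -24.32, -38.61, -46.75 and -13.68 percentile points, with a mean of -30.84 ± 6.64 (SD over the 2 tumors). Psmb8 had the lowest mean percentile of the 47 members, 51.23, and its peaks are near the middle of their lists.

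Psmb9, on chromosome 17 from 34181987 to 34187764, stood at 83.28, 70.93, 71.81 and 86.14. Psmb6, on chromosome 11 from 70525367 to 70527858, stood at 71.46, 72.12, 69.65 and 68.92. Psmb9 was higher in 3 of 4 libraries, with differences of 11.82, -1.19, 2.16 and 17.22 points, and the values overlap. The mean was 7.5 ± 0.73 (SD over the 2 tumor means), a spread that is narrower than that of the 4 libraries. The Psmb9 peak cannot be assigned to that gene alone, because Tap1, a subunit of the peptide transporter of antigen presentation, starts 38 bp away in the other direction and its highest peak is the same in all 4 lists.

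Psmb10, on chromosome 8 from 105935735 to 105938444, stood at 72.16, 64.31, 71.76 and 78.59, against 77.24, 79.2, 66 and 74.65 for Psmb7, on chromosome 2 from 38588036 to 38644087. The mean difference was -2.57 ± 4.11 (SD, n = 2), smaller than its spread. Psmb10 was lower in both Gfi1 libraries and higher in both Lsd1 libraries. Its peaks covered 100%, 82.4%, 100% and 98.6% of the gene, which is 2710 bp long.

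Averaged over the 3 pairs, the immunoproteasome genes differed from the constitutive ones by -8.63 ± 1.09 points (SD over the 2 tumor means). The values by library were wider apart, at -5.86, -18.23, -12.94 and 2.5, and without the Gfi1 library of tumor 41 the mean was -5.44. This mean rests on Psmb8. Without the pair of Psmb8 and Psmb5 it was 2.47, and with peaks ranked by width in place of score it was 1.79. None of the 3 immunoproteasome genes was in the upper 20% in all 4 lists, and of the constitutive catalytic genes Psmb5, Psmb6 and Psmb7 none was either, Psmb5 missing it in Gfi1 of tumor 41 alone.

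**Figure D2:**
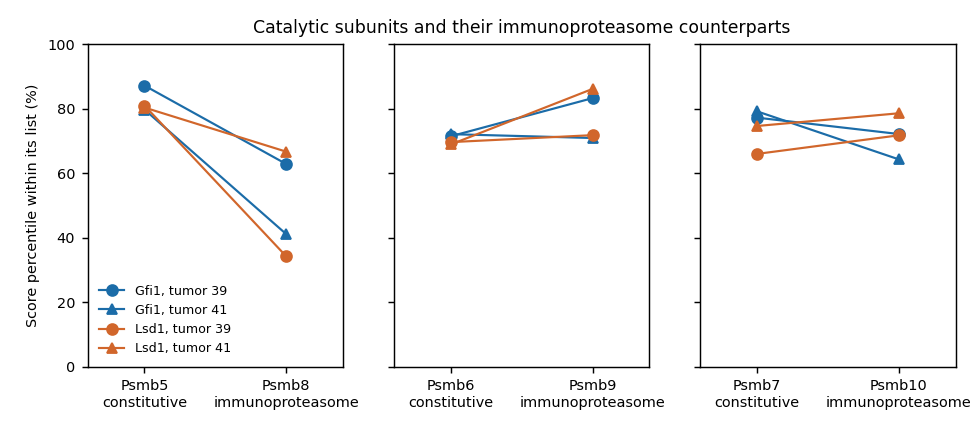
Score percentile within its list (vertical axis, in percent) of the highest promoter peak of each constitutive catalytic gene and of its immunoproteasome counterpart, with 1 line per library (Gfi1 blue, Lsd1 orange, tumor 39 circles, tumor 41 triangles). All 4 lines fall from Psmb5 to Psmb8, 3 of 4 rise from Psmb6 to Psmb9, and from Psmb7 to Psmb10 the Gfi1 lines fall and the Lsd1 lines rise.

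The immunoproteasome genes changed rank between the tumors in opposite directions for the factors. Psmb8, Psmb9 and Psmb10 were all lower in tumor 41 than in tumor 39 with Gfi1, with differences of -21.73, -12.35 and -7.85 points. With Lsd1 all 3 were higher in tumor 41, by 32.45, 14.33 and 6.82 points. Among the 31 constitutive core and cap genes 21 were lower in tumor 41 with Gfi1 and 17 were higher with Lsd1. Over all protein-coding genes with 4 peaks 22.6% were higher in tumor 41 with Gfi1 and 66.3% with Lsd1, so that these are also the common directions. The pattern was not particular to the immunoproteasome genes. Psmd6, a constitutive lid gene, changed by -17.22 with Gfi1 and 21.62 with Lsd1, more than Psmb9 and Psmb10, while Psmc2 went the other way, by 11.21 and -0.9. The share of genes with both directions at once is not given here. The Gfi1 list of tumor 41 is the shortest and that of tumor 39 the longest of the 4, and the part of this in the result was not tested.

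The place of the peaks around the RefSeq start differed between the catalytic genes. The Psmb5 peaks reached 628 to 1245 bp upstream and 1038 to 2085 bp downstream of the RefSeq start, and those of Psmb6 1223 to 1250 bp and 661 to 1535 bp. The Psmb8 peaks lay mostly upstream of it, 1015 to 2154 bp, with 73 to 770 bp downstream. Each of them began within the end of Tap1. The RefSeq start of Psmb8, at 34198195, lies inside the gene as annotated, which begins at 34197721. Measured from there, less of each Psmb8 peak is upstream, so its place depends on the start used. The Psmb10 peaks lay almost wholly downstream of the RefSeq start, with 117 to 403 bp before and 2181 to 2781 bp after it. Psmb10 has 7 annotated TSSs, so the place of its peaks also depends on the start used. Over the members with a RefSeq start the median reach was 804 to 1015 bp upstream and 1083 to 1295 bp downstream across the 4 lists.

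**Figure D3:**
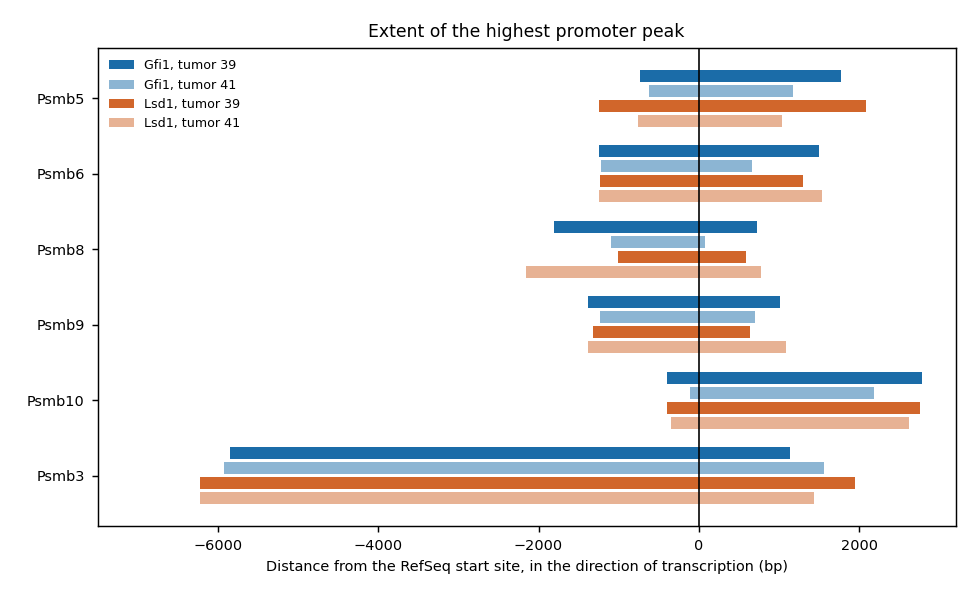
Extent of the highest promoter peak around the RefSeq start site (horizontal axis, distance in bp in the direction of transcription, with the start at 0) for 5 catalytic genes and Psmb3, with 1 bar per library. The Psmb8 bars lie mostly upstream, the Psmb10 bars mostly downstream, and the Psmb3 bars reach 5844 to 6227 bp upstream. The RefSeq start of Psmb8 lies inside the gene as annotated.

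At the core genes, as at the chaperonin genes described below, Gfi1 ranked above Lsd1 more often than the reverse. Of the 14 constitutive core genes 8 had both Gfi1 percentiles above both Lsd1 percentiles (Psma1, Psma2, Psma3, Psma5, Psmb1, Psmb2, Psmb6 and Psmb7), against 16.5% of all protein-coding genes with 4 peaks, and 0 had both Lsd1 percentiles above both Gfi1 percentiles, against 15.4%. Of the 17 cap genes 3 had Gfi1 above (Psmc3, Psmc6 and Psmd7) and 2 had Lsd1 above (Psmc4 and Psmd8). The pattern was not particular to the core. In the chaperonin ring 3 of 7 genes, or 42.9%, had Gfi1 above and 0 had Lsd1 above. Among 22 genes of the proteasome pathway with other names 5 had Gfi1 above, or 22.7%, and 1 had Lsd1 above, or 4.55%. Over the 47 members the counts were 14 with Gfi1 above, or 29.8%, and 5 with Lsd1 above, or 10.6%. When the factors were compared within each tumor, 14 genes had Gfi1 above in both tumors and 7 had Lsd1 above, against 20.1% and 19.8% of all protein-coding genes. The median difference, Lsd1 minus Gfi1, was -7.5 points over the alpha genes, -2.78 over the constitutive beta genes, -0.16 over the ATPases, -0.58 over the other cap subunits, -1.53 over the members and 0.33 over all protein-coding genes.

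The count of 8 core genes was 7 to 9 with other TSS windows or with ranks among peaks at a TSS. It was 4 when peaks were ranked by width, where 23.6% of all protein-coding genes had Gfi1 above. Without the Gfi1 library of tumor 41 it was 12 of 14, and 27 of 47 over all members, against 58.3% of all protein-coding genes with a peak in the 3 lists kept. Neither the difference between the factors nor that between core and cap was tested.

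Among the genes whose Gfi1 and Lsd1 values do not overlap, the largest differences with Gfi1 above were at Psma2, Psma5 and Psmg3. Psma2, an alpha subunit that shares its promoter with Mrpl32, stood at 81.21 and 94.52 with Gfi1 and at 72.47 and 76.43 with Lsd1, a difference of -13.42. Psma5, also of the alpha ring, stood at 91.78 and 89.36 against 77.98 and 83.3, a difference of -9.93. Psmg3, a chaperone of alpha ring assembly, stood at 82.92 and 85.65 against 77.58 and 71.5, a difference of -9.75. In these 3 genes every Gfi1 value was above every Lsd1 value.

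Among the genes with Lsd1 above and no overlap the differences were largest at Psmc4, Psmd8 and Psmg4. Psmc4, an ATPase of the cap, stood at 76.71 and 65.72 with Gfi1 and at 86.84 and 83.87 with Lsd1, a difference of 14.14. Psmd8, a lid subunit, stood at 83.06 and 87.78 against 92.9 and 90.96, a difference of 6.51. Psmg4, a chaperone, stood at 80.11 and 76.13 against 85.21 and 83.54, a difference of 6.25. Where the values overlap, Psme1 had a mean difference of 18.17, with Lsd1 above in each tumor, and Psmd6 one of -13.02.

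**Figure D4:**
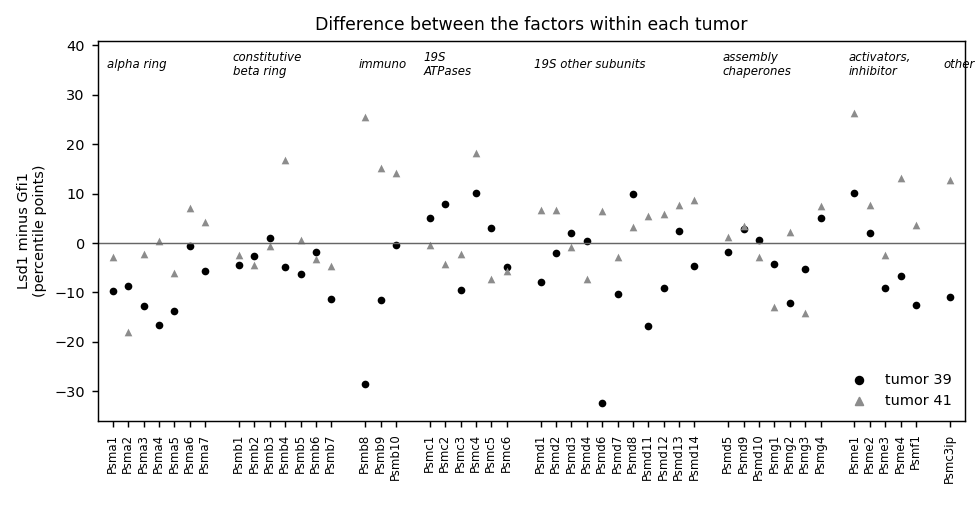
Lsd1 minus Gfi1 score percentile within tumor 39 (black circles) and tumor 41 (grey triangles), in percentile points, for the 47 proteasome genes with a peak in all 4 lists, ordered by role (Psmc3ip as other). Most alpha and constitutive beta genes lie below 0 in both tumors, and Psmb8 and Psmd6 have the points that lie farthest below 0, both in tumor 39.

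The peaks of both factors overlapped, at the members as at nearly all other genes. These genes were taken for having peaks of both factors near a TSS, so overlap was largely given by that choice. The highest Gfi1 peak overlapped the highest Lsd1 peak at 47 of 47 genes in each tumor, against 97% and 97.2% of all protein-coding genes with 4 peaks. The median share of the Gfi1 peak inside the Lsd1 peak was 100% in tumor 39 and 97.7% in tumor 41, and that of the Lsd1 peak inside the Gfi1 peak 85.4% and 87.8%. The Lsd1 peak was the wider in both tumors at 19 genes, or 40.4%, and the Gfi1 peak at 2, or 4.26%, against 49.5% and 7.24%. Median widths over the members were 2052.5 and 1936.0 bp with Gfi1, and with Lsd1 2505.0 and 2423.0 bp.

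As a description over the 47 genes, with no test, ranks were alike between tumors, with a Spearman rho of 0.763 for Gfi1 and 0.851 for Lsd1. Between the factors rho was 0.718 in tumor 39 and 0.713 in tumor 41. The libraries of a tumor share their chromatin, and all share the genome and its base composition. Over all protein-coding genes with 4 peaks the 4 values were 0.774, 0.882, 0.761 and 0.78.

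The CpG content of the promoters varied among the members, from 16 (Psme2b) to 128 CpGs (Psma7). Within 500 bp of the TSS with the most CpGs the median member has 59 CpGs, and the median protein-coding gene 50. When all protein-coding genes were split into 5 groups of about equal size by this number, 0 members fell in group 1 (up to 11 CpGs), 5 in group 2 (12 to 35), 22 in group 3 (36 to 59), 19 in group 4 (60 to 83) and 4 in group 5 (84 or more). In groups 3, 4 and 5 a peak in all 4 lists was found for 22 of 22, 19 of 19 and 4 of 4 members, against 73.5%, 84.2% and 86.3% of all protein-coding genes of the same group. In group 2 it was found for 2 of 5, Psme1 and Psmd10, against 19.4%. The 3 genes without 4 peaks, Psma8, Psmb11 and Psme2b, are the rest of group 2.

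Rank within the peak lists followed the CpG count much as it did elsewhere. The median mean percentile was 60.52, 78.95, 83.71 and 86.5 over the members in groups 2 to 5, and 63.82, 76.38, 83.88 and 86.52 over all protein-coding genes with 4 peaks. Psmb8 has 45 CpGs, Psmb9 66 and Psmb10 49. At 51.23 Psmb8 was below the median of group 3, and Psmb3, with 48 CpGs in the same group, was above it.

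**Figure D5:**
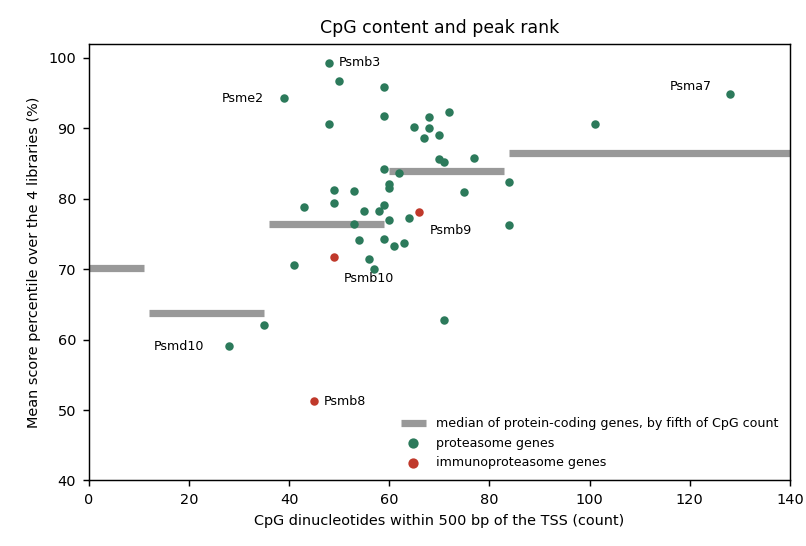
Mean score percentile over the 4 libraries (vertical axis, in percent) against the number of CpGs within 500 bp of the TSS (horizontal axis) for the 47 proteasome genes with 4 peaks, with the immunoproteasome genes in red and grey bars at the median of all protein-coding genes in each of 5 groups by CpG count, drawn up to 140 CpGs. Psmb8 lies far below the bar of its group, and Psmb3 and Psme2 lie far above theirs.

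Many proteasome genes share their promoter with a gene on the other strand. A coding gene starts within 1 kb in the other direction at 12 of 50 members, or 24%, and at 11% of all protein-coding genes. Another coding TSS lay inside the highest peak in every list at 13 of 47 members, or 27.7%, against 23.9%. These 13 had a median mean percentile of 90.65 and the other 34 one of 78.57, and over all protein-coding genes the values were 89.15 and 79.45. Among the partners were Tbp (Psmb1), Mrpl32 (Psma2), Sirt3 (Psmd13), Dnajc2 (Psmc2), Ftsj3 (Psmc5) and Cep76 (Psmg2). At these genes the peak lists do not tell which of the partners a peak belongs to.

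Short motifs were searched on both strands in the RefSeq promoter windows of 300 bases, which were at hand for 42 members and 16522 protein-coding genes. The ETS motif GGAAGT was in 20 member promoters, or 47.6%, against 28.3% of all. The antioxidant response element TGANNNNGC, to which Nfe2l1, the activator of proteasome genes, and Nfe2l2 bind, was in 24, or 57.1%, against 45.6%. It was in the windows of Psmb5, Psmb6, Psmb8 and Psmb9 and not in that of Psmb10. The Gfi1 core AAATCA was in 3 (Psmc2, Psmd4 and Psme2b), or 7.14%, against 14.3%, and Psme2b has no peak.

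The interferon-stimulated element, searched as 2 GAAA repeats with 2 bases between them, was in 5 (Psmb3, Psmd4, Psmd9, Psmg4 and Psme1), or 11.9%, against 4.02%. CCAAT was in 15 (35.7%, against 42.1%), CACGTG, the E-box of Myc, in 4 (9.52%, against 9.18%), GCATGCGC, part of the nuclear respiratory factor site, in 3 (7.14%, against 4.11%) and the NF-kappaB motif, GGGA and TTCC with 2 bases between them, in 1 (2.38%, against 1.63%). Some of these motifs share letters, such as GGAA in the ETS motif and, on the other strand, in the NF-kappaB motif, and a match describes the letters only.

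Beyond the promoters, some member genes held peaks that lay over 1 kb from any TSS, at percentiles from 2.61 (Psmb3) to 70.79 (Psmd3). Psmd3 had such peaks in all 4 lists near its end, on chromosome 11, at percentile 51.48 (Gfi1) and 40.75 (Lsd1) in tumor 39 and 9.22 and 70.79 in tumor 41, taking the higher where there were several. In Psmd9 such peaks were in 3 lists, at percentiles up to 41.39. In the other genes they were in 3 lists or fewer.

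Genes of the same pathway with other names are described beside the subunits. All 22 that were found, which include the subunits Adrm1 and Sem1, the assembly factor Pomp, the ubiquitin gene Ubb and shuttle factors, had a peak in all 4 lists, and 15, or 68.2%, were in the upper 20% in every list. Their median mean percentile was 90.66, against 81.15 for the members. They also hold more CpGs, with a median of 85. Nfe2l1, the transcription factor that raises proteasome genes when the proteasome is inhibited, stood at 95.05, 96.22, 98.16 and 99.83, and Nfe2l2 at 98.62, 98.95, 98.44 and 99.16. The chaperonin ring, another large complex of housekeeping genes, had 7 of 7 genes with 4 peaks, 4 of them in the upper 20% throughout, and a median mean percentile of 88.57. Of all protein-coding genes 53.1% had 4 peaks. Of those with 4 peaks 37.5% were in the upper 20% in every list, and their median mean percentile was 82.0.

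Of 10 antigen processing genes 8 had a peak in all 4 lists, or 80%, against 53.1% of all protein-coding genes. The 8 genes had a median mean percentile of 71.79, against 71.7 for the 3 immunoproteasome genes. Tapbp alone was in the upper 20% throughout, which is 10% of the list, against 19.9% of all protein-coding genes. Tap2, next to Psmb8, stood at 76.24, 67.23, 66.23 and 75.91. Nlrc5 and Irf1, regulators of these genes, had no peak in the Gfi1 list of tumor 41.

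Of 12 promoters of host immune markers 9 had no peak in any list (Ptprc, Aif1, Csf1r, Itgam, P2ry12, Tyrobp, C1qa, C1qb and Cx3cr1), Fcer1g had 1 in 1 list, and Cd68 and Cd74 had 4. That is 16.7% with 4 peaks, against 53.1% of all protein-coding genes. These 12 promoters have a median of 15 CpGs, and of all protein-coding genes with 12 to 35 CpGs 19.4% had 4 peaks. A missing peak therefore does not tell whether host cells were present. Cd68, a marker of myeloid cells, stood at 96.38, 99.65, 99.06 and 99.16, in the upper 20% throughout. The Cd68 peaks were 5711 to 7674 bp wide, and whether they also hold the TSS of another gene was not looked at. The Cd74 peaks ranked below the middle of every list. Of 10 neural progenitor markers, with a median of 75 CpGs, 5 had a peak in all 4 lists, or 50%, close to the 53.1% of all protein-coding genes. Sox9 and Hes1 were in the upper 20% throughout, or 20% against 19.9%. Peaks say where the factors lay and not which genes were expressed, and the share of host cells in the tumors was not measured here.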

How the data were processed

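Gfi1 and Lsd1 ChIP-seq peaks of 2 MG tumors were analysed from the peak lists of the 4 libraries. Per the labels and the methods, reads were mapped by the authors onto mm10 (BWA 0.6.2), merged (Picard) and freed of duplicates, and MACS in its default settings then called peaks per library against input. The MACS version is not given in the sources used here. The lists were deposited as start and end of each peak with a score, at least 50 in each list, whose definition is not given, so the authors' score served only as a rank within a list (mean rank for ties). Ranks depend on the length and makeup of each list.

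From the lists, peaks were assigned to all TSSs of a gene in GENCODE M21 (the authors used another release) within 1000 bp, and the peak with the highest score was kept. CpGs were counted in GRCm38.p6 within 500 bp of each TSS, keeping the TSS with the most. Promoter sequences are RefSeq's. Errors are SDs over both tumors, without any test between groups. The members, the lists and the comparisons were chosen with earlier results of these data known. The genes named are the catalytic and immunoproteasome genes, members without a full set of peaks, the 5 highest and 5 lowest by mean percentile, the 3 widest, the 3 largest differences between the factors in each direction among genes whose values do not overlap, Psme1, Psme2 and Psmc3ip, Tap1 and Tap2 and, where a count was split by role, its members. Psmd6 and Psmg2 were also named beside a ranking after their values were seen. Psma1 and some genes of the comparison lists, among them Cd68, Cd74, H2-D1, Erap1, Ubqln2, Nfe2l1 and Nfe2l2, fall outside this rule. They were named with their values known. Same-numbered libraries come from 1 tumor and are paired. The alternatives varied the TSS window and set, the gene assignment, the peak kept, the ranking, the score limit, the pairing and the libraries. The alternative without the Psmb8 pair and the recomputed counts for core and cap were added after seeing the data. The assignment of peaks was tested on simulated data, and the percentiles on a short list of numbers. Python 3.11.15 with numpy 2.4.6, pysam 0.24.0 and matplotlib 3.10.9 was used. Input, expression and drug experiments were not analysed here. Values of a motif and of single genes in the comparison lists are not reported here.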

Additional observations from a re-analysis of the deposited data

Results flagged for a closer look

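The difference between Psmb10 and Psmb7 had opposite signs for the factors. In both Gfi1 libraries the Psmb10 percentile was lower, by -5.08 and -14.89 points (mean -9.99), and in both Lsd1 libraries it was higher, by 5.76 and 3.94 points (mean 4.85). The Lsd1 difference minus the Gfi1 difference was 14.83 points. This difference was not tested.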

How the results depend on the processing

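Of 137 recomputed values 111 kept their direction and stayed within 1.5 times the count, or within the spread between the tumors, 24 moved further and 2 reversed. The 47 genes with a peak in all 4 lists changed by less than this under every alternative run. The 18 genes in the upper 20% became 5 when ranked among peaks at a TSS, 5 by width, 4 at the upper 10% and 43 at the upper 40%. The 5 genes with Lsd1 above Gfi1 became 9 of 47 when ranked among peaks at a TSS, where 15.9% of all protein-coding genes did. Median percentiles of 81.56 (Gfi1) and 79.87 (Lsd1) became 67.71 and 64.12 among peaks at a TSS, where those of all protein-coding genes were 65.13 and 64.35, and 67.96 and 72.51 by width, against 72.40 and 72.17. The mean difference of the catalytic pairs, -8.63, was -9.79 with a TSS window of 2000 bp, -9.82 among peaks at a TSS, and reversed to 1.79 by width and to 2.47 without Psmb8 and Psmb5. The count of 8 core genes with Gfi1 above Lsd1 was 4 by width, where the share of all protein-coding genes was 23.6%. The cause of these changes was not tested.

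Leaving out 1 library at a time gave 8 to 20 genes with Lsd1 above Gfi1 (20 without Gfi1 of tumor 39, where 55% of all protein-coding genes did), 18 to 27 with Gfi1 above (27 without Gfi1 of tumor 41, against 58.3%), 5 to 8 cap genes with Gfi1 above in place of 3, and a mean of the pairs from -12.34 (without Lsd1 of tumor 41) to -5.44 (without Gfi1 of tumor 41). Fewer values to keep apart raise such counts by construction. With the replicate block, comparing the factors within each tumor, 7 genes had Lsd1 above and 14 had Gfi1 above (19.8% and 20.1% of all protein-coding genes), with 8 core and 3 cap genes with Gfi1 above. No other value was recomputed with the pairing. The paper gives the mapped reads of each library, but the lists give none per peak, and the limits set by depth were not computed.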

Other observations

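The opposite shifts of Psmb8, Psmb9 and Psmb10 between the tumors were also seen in the antigen processing genes. With Gfi1 8 of 8 of these with a peak in both tumors ranked higher in tumor 39, and with Lsd1 10 of 10 ranked higher in tumor 41. The Gfi1 shifts were largest at H2-D1 and Erap1, and the ranks of Tapbp hardly moved with either factor. H2-D1, a class I antigen, stood at 81.88 and 37.76 with Gfi1 in tumors 39 and 41 and at 50.28 and 69.23 with Lsd1. Erap1, which trims peptides, stood at 78.15 and 52.77 with Gfi1 and at 61.5 and 72.64 with Lsd1. Of the constitutive core and cap genes 21 of 31 ranked higher in tumor 39 with Gfi1 and 17 of 31 higher in tumor 41 with Lsd1. Over all protein-coding genes with 4 peaks 22.6% ranked higher in tumor 41 with Gfi1 and 66.3% with Lsd1. The list holds Tap1, which shares its peak with Psmb9, and it was read after the values had been seen, with no test.

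Ubqln2, a ubiquitin shuttle factor, had the lowest mean percentile of the genes of the pathway with other names, at 80.67, 37.13, 67.47 and 66.8. Both Ubqln2 and Psmd10 lie on the X chromosome, and whether the chromosome bears on their ranks was not tested. The values of Ubqln2 were spread more widely than those of Psmd10, which ran from 57.66 to 60.43.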
